A study of Mus musculus with 20 samples.

Results

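Type I interferon response genes are the transcripts that cells switch on after an interferon reaches its receptor, and 40 of them were followed here in whole mouse skin. They were taken by symbol from a table of 46744 rows, and each of the 40 was found in 1 row. Of these 40, 36 have a row of their own. Irf9 shares its row with Rnf31, Igtp with Irgm2, Ifitm2 with Ifitm5, and Rtp4 with a predicted gene, so those 4 values cover more than 1 gene.

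The skin came from C57BL/6 mice, an inbred laboratory strain, as 20 samples in 6 groups. The controls, genotype Sod2+/+, were 5 samples of 50 days, 2 of 100 days, 3 of 300 days and 4 of 700 days of age. The other 6 samples carried a conditional Sod2 knockout (cKO, genotype Sod2-/-), with 3 of 100 and 3 of 300 days. Sod2 encodes the superoxide dismutase of mitochondria, and the labels name neither the cells in which it was deleted nor what drove the deletion. Each gene has 1 value per group in FPKM (a read density scaled for gene length and library size), made by the authors over the samples of that group. There are no replicate values, so no value below has an error or a test, and the read depth is unknown. A difference is given as the log2 ratio of (FPKM + 1), which understates the change of low genes, and genes are called counted, as higher or as lower, once that ratio reaches a size of 1. All 40 genes averaged 1 FPKM or more across the groups, which 12819 of 20200 rows with a named gene did. Those 12819 rows, which hold the 40 as well, are the background below. Some members reached that mean mainly through the 300-day groups, since 7 of them were below 1 FPKM in cKO skin at 100 days and none in either 300-day group.

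Interferons of type I bind a receptor made of IFNAR1 and IFNAR2, whose kinases JAK1 and TYK2 phosphorylate STAT proteins, among them STAT2. These join IRF9 and bind the interferon-stimulated response element in front of their target genes. The targets sense foreign RNA and DNA, block steps of viral replication, and feed back on the pathway, and many also respond to interferon gamma. In skin, keratinocytes, fibroblasts and immune cells can all carry out this response, and keratinocytes make an interferon of their own, interferon kappa.

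Some facts of the whole table touch every comparison below. Markers of keratinocytes were high in every group (summed FPKM of 7 genes 1603 to 7991), as whole skin should show. At 100 days Sod2 itself stood at 27.7 FPKM in the controls and 17.6 in cKO skin, and at 300 days at 23.5 and 16.8 FPKM, and the labels do not say which exons were deleted. Uty, Kdm5d, Eif2s3y and Ddx3y of the Y chromosome were all counted as higher, and Xist as lower, in cKO against control skin at both ages and in 700- against 50-day skin, so genotype and old age cannot be told apart from this sex-linked difference. Between the 100- and 300-day controls none of these 5 transcripts was counted, though Xist narrowly missed it (1141 and 2187 FPKM, log2 ratio 0.94). Between the cKO groups Xist alone was counted (4.92 and 17.2 FPKM). The 300-day controls also stood apart in lymphocyte transcripts, with 332 summed FPKM over 8 B and plasma cell markers against 2.36 to 7.80 in the other 5 groups. The titles carry one prefix for the 50- and 700-day controls and another for the 100- and 300-day groups, and no ratio was taken across them.

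The element named after the response was looked for in the members' promoters. RefSeq promoter sequences of GRCm38.p6 (250 bases before to 50 bases after a start) were matched by symbol for 29 of the 40 genes. A response element core, here GAAA, any 2 bases and GAAA again on either strand, was found for 16 of the 29 genes (55.2%) and for 3.99% of 27025 genes. Its longer form, with CT after the second GAAA, was found for 8 of the 29 (27.6%) and for 0.303% of all genes. The gamma-activated site TTCNNNGAA, the element of the interferon gamma response, was found for 9 of the 29 (31.0%) and for 9.55% of all genes. Of those 9 genes 5 also held the core, and in 2 of them the matches overlap. A match says only that these letters are present. Of the 8 genes counted as higher at 300 days in both genotypes, Oasl2 held neither motif in its promoter, and Mx1 and Zbp1 were not among the 29 matched. The stretches below are shown because Isg15, Ifit3, Oas3, Bst2 and Gbp3, the other 5 of these 8, held the core, and so did Ifit1, which had the largest such ratio in cKO skin. Each runs 5′ to 3′ along the strand of the gene with core matches in capitals, and a match on the opposite strand reads TTTC, 2 bases, TTTC.
Isg15 (chr4:156200860-156200911, minus strand): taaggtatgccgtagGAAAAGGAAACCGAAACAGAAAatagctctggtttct
Bst2 (chr8:71537572-71537617, minus strand): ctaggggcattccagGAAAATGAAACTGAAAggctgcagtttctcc
Oas3 (chr5:120777710-120777749, minus strand): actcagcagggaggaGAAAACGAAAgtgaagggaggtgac
Ifit1 (chr19:34640770-34640828, plus strand): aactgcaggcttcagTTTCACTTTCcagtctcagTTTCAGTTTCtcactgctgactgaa
Ifit3 (chr19:34583358-34583431, plus strand): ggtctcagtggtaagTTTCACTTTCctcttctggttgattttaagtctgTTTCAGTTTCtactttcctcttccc
Gbp3 (chr3:142559984-142560029, plus strand): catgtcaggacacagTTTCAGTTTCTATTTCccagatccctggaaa
In Isg15 there are 3 overlapping matches, the first starting 78 bases before the start. In Ifit1 the pair lies 104 and 85 bases before it and in Ifit3 156 and 122. The core was also present in genes with other results. Ifih1, Ddx58, Stat2, Eif2ak2, Ifitm2, Gbp2 and Igtp held it and were counted in no comparison. Ifitm3, counted as lower in cKO skin at 300 days, held 2 core matches and a gamma-activated site. Irf1, the other member counted as lower there, is shown because its ratio between genotypes at 300 days was the lowest of the 40. Its promoters held no core match, and one of them held a gamma-activated site, in capitals here.
Irf1 (chr11:53769909-53769947, plus strand): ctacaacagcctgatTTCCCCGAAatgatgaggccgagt

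Between 100 and 300 days most members were higher in either genotype. In control skin 13 of the 40 genes were counted as higher at 300 days and none as lower, where 3.55% of all genes were higher and 1.05% lower. Their median log2 ratio was 0.73, beside 0.03 for all genes, and 37 of the 40 ratios were above 0. In cKO skin 13 were higher and 1 lower, where 2.47% of all genes were higher and 1.55% lower, with a median of 0.82 beside 0.02 and again 37 ratios above 0. Among the 24 members with a mean of at least 5 FPKM, 5 were higher in the controls and 6 in cKO skin. Of all 9275 genes with that mean, 190 and 204 were higher. The 300-day values enter this mean, so it does not select members independently of the age ratios. The controls and the cKO groups of these comparisons are different samples. Of the 40 genes 34 had a ratio above 0 in both genotypes, against 29.0% of all genes, and 8 were counted as higher in both, against 0.343% of all genes. Oas1a, Oas3 and Mx1 were below 1 FPKM in the 4 groups other than the 300-day ones. Oasl1 (0.387 to 1.03 FPKM) and Mx2 (0.852 to 1.12 FPKM) stayed near or below 1 there. All of these passed the filter through the 300-day groups and are among the 13 counted in the controls, and Oas3 and Mx1 are among the 8. Their counts are thus not independent of the filter. In the controls, rescaling to equal totals moved the median of all genes from 0.03 to -0.15 and that of the members from 0.73 to 0.59, and it changed the share of higher among all counted genes from 77.1% to 61.3%. The ratios of Eif2ak2, Ifitm2 and Rtp4 in the controls changed sign under it, each from a value of at most 0.10.

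**Figure D1:**
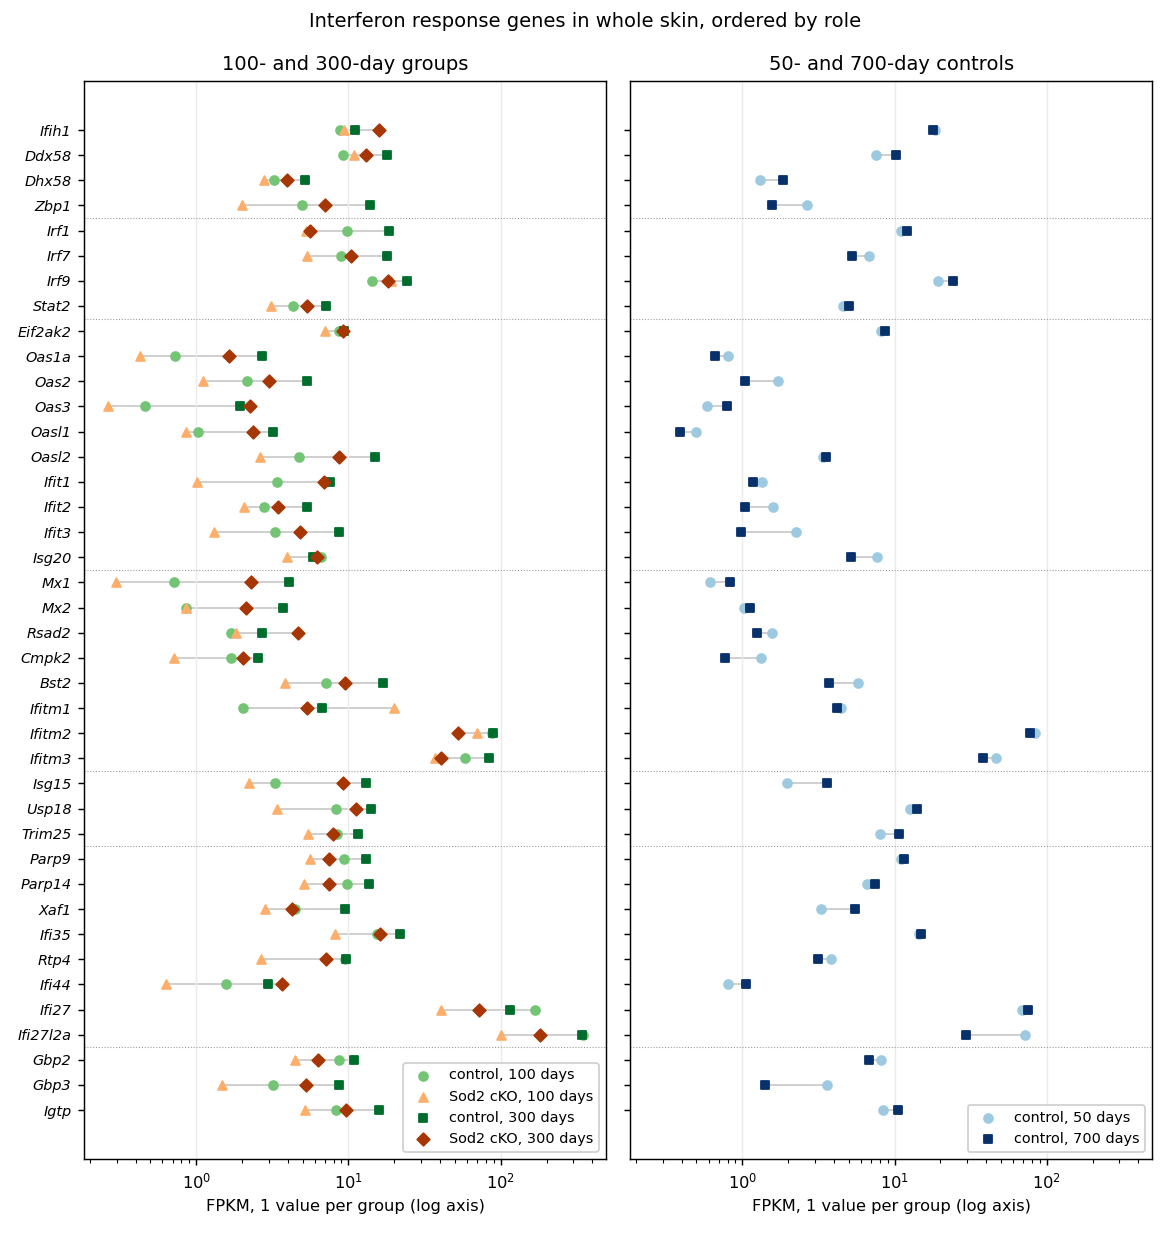
FPKM of each of the 40 genes (rows, ordered by role, dotted lines between roles) on a log axis, with 1 point per group: control and Sod2 cKO skin at 100 and 300 days on the left, control skin at 50 and 700 days on the right. Grey lines join the lowest and highest group, and on the left the 300-day control is the highest of the 4 groups for 32 genes and the 100-day cKO the lowest for 33.

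Sensors of nucleic acid came first in the pathway. Zbp1, which binds Z-form nucleic acid and can start necroptosis, was 4.96 FPKM in the controls at 100 days and 13.9 at 300 days, and 1.99 and 7.00 FPKM in cKO skin, log2 ratios of 1.32 and 1.42. Zbp1 was thus higher at 300 days in both genotypes and lower in cKO than in control skin at both ages, with a ratio of -0.89 at 300 days and of -0.996 at 100 days, where it narrowly missed being counted. The RNA sensors of the RIG-I family differed less. Ddx58, which encodes RIG-I, was 9.24 and 17.8 FPKM in the controls at 100 and 300 days and 10.9 and 13.0 FPKM in cKO skin. Dhx58, which encodes their relative LGP2, was 3.23 and 5.19 FPKM in the controls and 2.79 and 3.97 in cKO skin. Ifih1, which encodes the long-RNA sensor MDA5, was one of 4 genes with their highest value of the 100- and 300-day groups in cKO skin at 300 days, at 15.9 FPKM against 11.0 in the 300-day control, 9.31 in the 100-day cKO and 8.83 in the 100-day control. None of these 3 RNA sensors was counted in any comparison.

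The transcription factors of the pathway parted between age and genotype. Irf7, the factor that amplifies interferon production, was 8.90 FPKM in the 100-day and 17.9 in the 300-day controls, and 5.37 and 10.4 FPKM in cKO skin (log2 ratios 0.93 and 0.84). Stat2 was 4.30 and 7.16 FPKM in the controls and 3.09 and 5.35 in cKO skin. Both were higher at 300 days and lower in cKO skin by less than the size counted. Irf1, a factor shared with the interferon gamma response, was 9.78 and 18.5 FPKM in the controls but 5.30 and 5.56 in cKO skin. It therefore had an age ratio of 0.85 in the controls and 0.06 in cKO skin, and was counted as lower in cKO skin at 300 days (-1.57). The row of Irf9 with Rnf31 was 14.2 and 24.2 FPKM in the controls and 19.0 and 18.1 FPKM in cKO skin. Rnf31 encodes a ubiquitin ligase subunit and lies on the same strand within the overlapping span.

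Of the 10 RNA-directed effectors, 6 were counted as higher at 300 days in the controls and 4 in cKO skin, and none as lower. The OAS proteins make a messenger that activates the nuclease RNase L on meeting double-stranded RNA, and their relatives Oasl1 and Oasl2 lack that activity or differ in it. Oasl2 was 4.73 and 14.9 FPKM in the controls at 100 and 300 days (1.47), and 2.61 and 8.65 FPKM in cKO skin (1.42). Oas3 was 0.459 and 1.94 FPKM in the controls and 0.263 and 2.27 in cKO skin, with ratios of 1.01 and 1.37. Both were counted in both genotypes. Oas1a (0.728 and 2.69 FPKM), Oas2 (2.14 and 5.35) and Oasl1 (1.03 and 3.20) were counted in the controls, with ratios of 1.02 to 1.09. In cKO skin Oas1a was 0.430 and 1.64 FPKM, Oas2 1.11 and 3.02, and Oasl1 0.858 and 2.37, with ratios of 0.86 to 0.93, short of the size counted. In the controls Oas2 was no longer counted after rescaling to equal totals or to a common median, nor Oas3 after the latter. Reads from Oas1a can be shared with its close copies.

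The IFIT proteins bind viral RNA ends. Ifit3 was 3.28 and 8.65 FPKM in the controls (1.17) and 1.30 and 4.78 in cKO skin (1.33). Ifit1 was 3.38 and 7.52 FPKM in the controls (0.96) and 1.01 and 6.93 in cKO skin (1.98), the largest age ratio of the 40 in that genotype. Its 300-day values thus lay close together in the genotypes while its 100-day values lay apart. Ifit2 was 2.79 and 5.31 FPKM in the controls and 2.06 and 3.46 in cKO skin, and was not counted. The 3 genes lie within 1 stretch of chromosome 19 between 34550694 and 34650009 (GRCm38), with 52139 bases between Ifit3 and Ifit1. The Ifit3 row has a near-identical neighbour, Ifit3b, with which reads may be shared. Eif2ak2, which encodes the kinase PKR, ranged only from 6.99 to 9.41 FPKM over the 100- and 300-day groups. Isg20, an exonuclease, was 6.59 FPKM in the 100-day and 5.81 in the 300-day controls and 3.97 and 6.17 in cKO skin, so it showed no higher level at 300 days in the controls.

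Effectors at membranes and of viral entry differed among themselves. Mx1, a dynamin-like GTPase gene that is truncated in most laboratory strains, was 0.719 and 4.08 FPKM in the controls (1.56) and 0.296 and 2.29 in cKO skin (1.34). Its neighbour Mx2 was 0.852 and 3.71 FPKM in the controls (1.35) and 0.860 and 2.12 in cKO skin (0.74). Bst2, which encodes the tether of budding virions, was 7.11 and 16.8 FPKM in the controls (1.13) and 3.84 and 9.42 in cKO skin (1.11). Mx1 and Bst2 were counted in both genotypes and Mx2 in the controls, though Bst2 in the controls was no longer counted after rescaling to equal totals. Rsad2, which encodes viperin, followed another order. It was 1.69 and 2.71 FPKM in the controls and 1.83 and 4.69 in cKO skin, and its ratio of 1.00 in cKO skin fell below the size counted after rescaling to a common median. Cmpk2, a nucleotide kinase gene 12751 bases from Rsad2, was 1.69 and 2.54 FPKM in the controls and 0.719 and 2.02 in cKO skin.

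Ifitm1 went against its neighbours. The IFITM proteins block fusion of viruses with cell membranes, and their genes lie within 1 stretch of chromosome 7 from 140954837 to 141010770. Ifitm1 was 2.03 FPKM in control and 19.8 in cKO skin at 100 days, and 6.75 and 5.36 FPKM at 300 days. The 100-day cKO value was thus the highest of the 6 groups, and the 50- and 700-day controls held 4.46 and 4.20 FPKM. In the controls it was counted as higher at 300 days (1.36). Its ratio was 2.78 between genotypes at 100 days and -0.29 at 300 days, and it was the 1 member counted as higher in cKO skin and the 1 counted as lower at 300 days in cKO skin (-1.71). Of 8 neutrophil markers, 2 passed the filter. At 100 days S100a8 reached 21.4 FPKM in cKO skin against 2.53 in the controls, and S100a9 2.59 against 1.04 FPKM. In cKO skin at 300 days they were 19.9 and 21.9 FPKM. The defining marker Ly6g was at most 0.312 FPKM in any group. Below the filter, Ly6g, Cxcr2, Retnlg and Ngp were higher in cKO skin at 100 days. Csf3r (0.461 against 0.889 FPKM) and Camp (0.0392 against 0.172 FPKM) were lower. The part of neutrophils in the Ifitm1 value was not tested. Ifitm3 was 58.3 FPKM in control and 37.2 in cKO skin at 100 days, and 83.6 and 40.5 FPKM at 300 days. The row of Ifitm2 with Ifitm5 was 87.1 against 69.7 FPKM at 100 days and 89.1 against 52.4 at 300 days. Both neighbours were lower in cKO skin at both ages, and Ifitm3 was counted at 300 days with a ratio of -1.03, though not after rescaling to a common median.

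Isg15, a ubiquitin-like protein gene that is among the most strongly induced by interferon, had the largest age ratio of the 40 in control skin. It was 3.30 and 13.0 FPKM in the controls (1.70) and 2.23 and 9.20 in cKO skin (1.66). Usp18, which removes ISG15 and damps the receptor, was 8.27 and 14.0 FPKM in the controls (0.70) and 3.39 and 11.2 in cKO skin (1.48). Trim25, the ligase of the RIG-I pathway, was 8.45 and 11.5 FPKM in the controls and 5.43 and 7.86 in cKO skin. In all 3 genes the 300-day control was the highest and the 100-day cKO the lowest of the 4 groups.

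Among the other members, the mono-ADP-ribosyltransferase genes Parp9 and Parp14 were counted in no comparison. Parp9 was 9.36 and 13.0 FPKM in the controls and 5.62 and 7.50 in cKO skin, and Parp14 was 9.79 and 13.7 FPKM in the controls and 5.12 and 7.47 in cKO skin. Each was lower in cKO than in control skin at both ages, with ratios between -0.82 and -0.65. Ifi44 was 1.57 and 2.97 FPKM in the controls and 0.634 and 3.66 in cKO skin (1.51). Rtp4 was 9.52 and 9.69 FPKM in the controls and 2.66 and 7.10 in cKO skin (1.14). These 2 genes, with Ifit1, Usp18 and Rsad2, were counted as higher at 300 days in cKO skin alone, and a difference between genotypes could not be tested. Xaf1, which encodes an XIAP-binding protein, was 4.45 and 9.46 FPKM in the controls and 2.81 and 4.24 in cKO skin. Ifi35 was 15.5 and 21.7 FPKM in the controls and 8.10 and 16.1 in cKO skin.

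Ifi27 and Ifi27l2a, related mitochondrial protein genes 1927 bases apart on chromosome 12, were among the most abundant members and were not higher at 300 days in the controls. Ifi27l2a was 345 FPKM at 100 days and 339.7 at 300 days in the controls, and 100.0 and 182 FPKM in cKO skin. Ifi27 was 169 and 115 FPKM in the controls and 40.3 and 72.3 in cKO skin. In cKO skin Ifi27l2a had an age ratio of 0.86 and Ifi27 of 0.83, while in the controls Ifi27 had the lowest age ratio of the 40 (-0.55) and Ifi27l2a one of -0.02.

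The GTPases that attack the vacuoles of pathogens completed the list. Gbp3 was 3.18 and 8.65 FPKM in the controls (1.21) and 1.48 and 5.30 in cKO skin (1.35), counted in both. Gbp2 was 8.63 and 10.8 FPKM in the controls and 4.45 and 6.30 in cKO skin, and the row of Igtp with Irgm2 was 8.28 and 15.9 FPKM in the controls and 5.21 and 9.60 in cKO skin. In these 3 genes the 300-day control was again the highest and the 100-day cKO the lowest of the 4 groups.

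**Figure D2:**
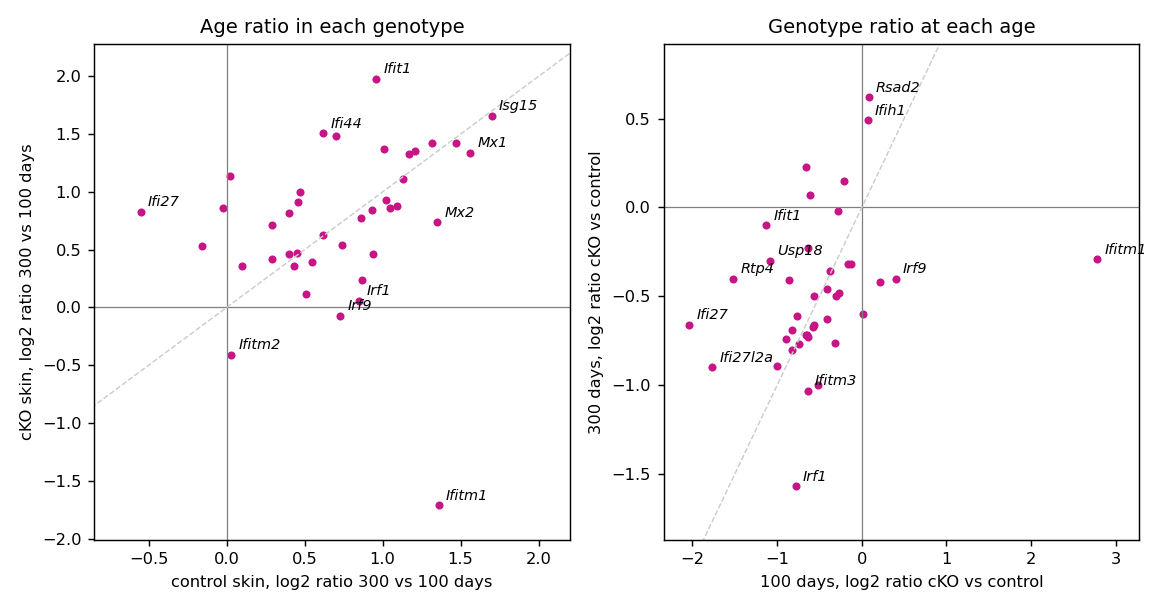
Log2 ratios of (FPKM + 1) for the 40 genes, 1 point per gene, with the dashed line marking equal ratios. Left: 300 against 100 days in control (horizontal) and cKO skin (vertical), where 34 points lie above 0 on both axes and Ifitm1 at 1.36 and -1.71; right: cKO against control skin at 100 (horizontal) and 300 days (vertical), where 31 points lie below 0 on both.

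Immune cell markers were counted with the age difference in the controls and not in cKO skin, apart from S100a9 (2.59 and 21.9 FPKM). In control skin all 8 B and plasma cell markers were counted as higher at 300 days (summed 332 against 7.80 FPKM, with Ms4a1 listed at 0 at 100 days). So were 6 of the 7 T and NK cell markers that passed the filter (100.4 against 7.15 FPKM summed over 9) and 5 of 10 macrophage and monocyte markers (402 against 181 FPKM). In bulk tissue more cells of a type and more RNA per cell cannot be told apart, and the part of these cells in the members' ratios was not tested. In cKO skin none of the B and plasma cell markers was counted (2.67 FPKM summed at 300 days against 4.19 at 100 days, with Ms4a1 and Jchain listed at 0 at 300 days). None of the T and NK cell markers (10.4 against 8.43 FPKM) or of the macrophage and monocyte markers (163 against 141 FPKM) was counted either. The members' median was 0.82 there, and the median ratios of the 3 marker lists were -0.24, 0.08 and 0.28. Ratios were above 0 for 1 of 8 B and plasma cell, 4 of 7 T and NK cell and 9 of 10 macrophage and monocyte markers. Of the fibroblast markers, 3 of 6, Col1a1, Col1a2 and Lum, were higher in cKO skin at 300 days (1509 against 660.4 summed FPKM). For that list 5 ratios were above 0, and Pdgfra had one of -0.36. Of the keratinocyte markers 1 of 7 was higher (2877 against 1861 FPKM). Of the skeletal muscle markers 2 of 5 were higher (7251 against 3645 FPKM), and all 5 ratios were above 0. The part of any of these cells, immune or other, in the members' ratios in cKO skin was not tested.

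Rows beyond the members were read from lists of the same pathway. Of 56 other interferon-inducible rows, 19 were higher and none lower at 300 days in the controls, with a median of 0.70. In cKO skin 6 were higher and none lower, with a median of 0.38. Ifi203, Sp100 and Oas1g were counted in both. The row of Sp100, a nuclear body protein gene, was 14.7 and 44.2 FPKM in the controls and 7.33 and 16.2 in cKO skin. Of 15 rows of genes listed as answering mainly to interferon gamma, 8 were higher and Ido1 lower in the controls (median 1.00). Some of the 15 are also on the former list, and none was counted in cKO skin (median 0.24). The 8 were Ciita, H2-Aa, H2-Ab1, H2-DMa, H2-DMb1, Cd74, Gbp5 and Irgm1. Most of them serve MHC class II, and the part of B cells and other immune cells in these rows was not tested. The row of Cd74, the chaperone of MHC class II, was 147 and 363 FPKM in the controls and 87.3 and 107 in cKO skin.

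Upstream of the members, interferon transcripts were close to nothing. Of 11 interferon genes only Ifnk, interferon kappa of keratinocytes, reached a mean of 1 FPKM, and 4 of them (Ifna4, Ifna5, Ifnl2 and Ifnl3) were listed at 0 in all groups. Ifnb1 was at most 0.0898 FPKM and Ifng at most 0.0644 FPKM in any group. Ifnk was 1.97 and 1.29 FPKM in the controls at 100 and 300 days and 1.93 and 1.17 in cKO skin. It was thus lower at 300 days, by less than the size counted and at values not far above 1 FPKM. A link of Ifnk to the members' ratios was not tested. The receptor chain Ifnar1 was 19.2 and 17.9 FPKM in the controls and 12.5 and 12.0 in cKO skin, and the row that Ifnar2 shares with Il10rb was 27.7 and 35.4 FPKM in the controls and 17.6 and 21.8 in cKO skin. Neither receptor row was counted in any comparison. Of 14 sensing genes, Ikbke, Irf5 and Samhd1 were higher at 300 days in the controls and Ikbke in cKO skin. Ikbke, a kinase of interferon induction, was 12.2 and 26.1 FPKM in the controls and 6.22 and 15.6 in cKO skin.

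**Figure D3:**
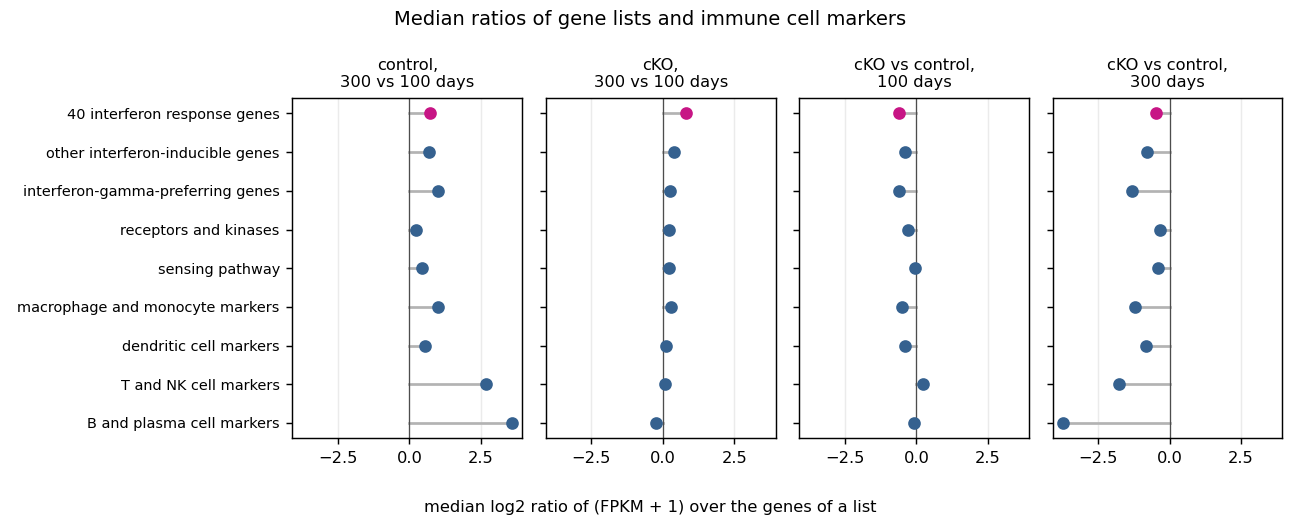
Median log2 ratio of (FPKM + 1) over each gene list (rows) in 4 comparisons (panels), with the 40 interferon response genes in magenta. B and plasma cell markers stand at 3.58 in the controls between 100 and 300 days and at -0.24 in cKO skin, where the members stand at 0.73 and 0.82.

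Between genotypes most members were lower in cKO skin. At 100 days 5 of the 40 were counted as lower and 1 as higher, where 4.33% of all genes were lower and 2.25% higher. The count of lower members was 11 with a pseudocount of 0.1 and 8 after rescaling to equal totals. The median was -0.60 beside 0.02 for all genes, and 34 of 40 ratios were below 0. The 5 were Ifi27 (-2.04), Ifi27l2a (-1.77), Rtp4 (-1.52), Ifit1 (-1.13) and Usp18 (-1.08), whose values stand above. None of these 5 had been counted between ages in the controls, and Ifit1, Rtp4 and Usp18 were counted as higher at 300 days in cKO skin. With values rescaled to equal totals 37 of 40 ratios were below 0, with Ifih1, Mx2 and Rsad2 changing sign, while the median of all genes moved to -0.10 and the share of higher among all counted genes from 34.2% to 23.6%. All 6 adipocyte markers were lower in cKO skin at 100 days (979 against 3135 summed FPKM), 1 of 10 macrophage and monocyte markers was lower (141 against 181 FPKM), and no T and NK cell marker was counted (8.43 against 7.15 FPKM). Below the size counted, 8 of the 10 macrophage and monocyte ratios were below 0 (median -0.50). So were all 5 of endothelium (-0.54) and 4 of 6 of dendritic and Langerhans cells (-0.41). The T and NK cell and keratinocyte lists had medians above 0 (0.23 and 0.36). Lower as well were 2 of 5 skeletal muscle markers (3645 against 7029.6 FPKM), 1 of 6 fibroblast markers (Lum, 660.4 against 812 FPKM for the list) and 1 of 8 B and plasma cell markers (Igkc, 4.19 against 7.80 FPKM for the list). The part of these cells in the result was not tested.

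At 300 days 2 of the 40 genes were lower, Irf1 and Ifitm3, and none was higher, where 5.19% of all genes were lower and 1.95% higher. That share of members, 2 of 40, is near the background, but the median was -0.50 beside -0.01 for all genes, and 35 of 40 ratios were below 0. Xaf1, at -0.997, narrowly missed being counted. The 5 members with higher values in cKO skin at 300 days were Rsad2 (0.62), Ifih1 (0.49), Ifi44 (0.23), Oas3 (0.15) and Isg20 (0.07). At both ages together, 31 of the 40 ratios were below 0, against 31.5% of all genes, and 2, those of Rsad2 and Ifih1, were above 0 at both. The immune markers moved with this comparison, since all 8 B and plasma cell markers (2.67 against 332 summed FPKM), all 7 T and NK cell markers (10.4 against 100.4 FPKM) and 6 of 10 macrophage and monocyte markers (163 against 402 FPKM) were lower in cKO skin. Of the adipocyte markers 5 of 6 were lower (1087 against 2247 FPKM), and 2 of 7 keratinocyte markers were higher (2877 against 1603 FPKM). Higher as well were 2 of 6 fibroblast markers, Col1a1 and Col1a2 (1509 against 734 FPKM for the list). Of the other fibroblast markers, Pdgfra (-0.58) and Dpt (-0.21) had ratios below 0, and Lum (0.31) and Dcn (0.63) above 0. The part of any of these cells in the members' ratios was not tested. Of the genes listed as answering mainly to interferon gamma 11 of 15 were lower (median -1.31), and of the other interferon-inducible rows 18 of 56 (median -0.79). The 11 include Ciita, H2-Aa, H2-Ab1, H2-Eb1, H2-DMa, H2-DMb1 and Cd74, which serve MHC class II. The part of immune cells in these rows was not tested.

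**Figure D4:**
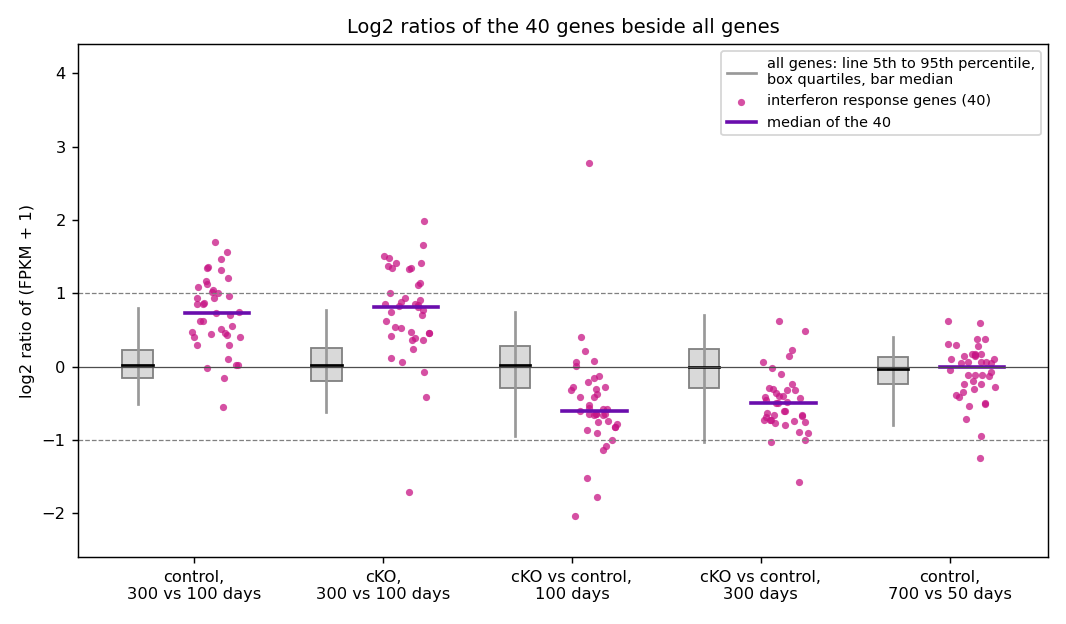
Log2 ratios of (FPKM + 1) in 5 comparisons, with each of the 40 genes as a magenta point, their median as a purple bar, and all 12819 genes as a grey box (quartiles) with a line from the 5th to the 95th percentile; dashed lines mark the size counted. The medians of the members stand at 0.73 and 0.82 for age, at -0.60 and -0.50 for genotype, and at 0.00 for 700 against 50 days.

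The difference of the genotype ratios, 300 minus 100 days, had a median of -0.01 over the members, beside -0.02 for all genes, with 20 ratios above and 20 below 0. Of the 40, 3 were counted as higher and 1 as lower, where 3.93% of all genes were higher and 4.87% lower. The 3 were Ifi27 (1.38), Rtp4 (1.12) and Ifit1 (1.02), each further below the control at 100 than at 300 days, and the 1 was Ifitm1 (-3.07). This difference, the age ratios and the genotype ratios are all made from the same 4 groups, so none of them stands independently of the others. After rescaling to equal totals 27 of the ratios were above 0 and the share of higher among all counted genes went from 44.7% to 55.9%.

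Between 50 and 700 days the members had no common direction in control skin. None was counted as higher and 1 as lower, where 0.632% of all genes were higher and 3.26% lower. The count of lower members was 3 with a pseudocount of 0.1, and 2 with one of 0.5 or after rescaling to equal totals. The median was 0.00 beside -0.03 for all genes, with 20 ratios on each side of 0. The 1 was Ifi27l2a, at 71.5 FPKM at 50 days and 29.4 at 700 days (-1.25), while its neighbour Ifi27 was 68.9 and 75.8 FPKM. Gbp3 came next at 3.62 and 1.41 FPKM (-0.94), and Ifit3 at 2.24 and 0.974 FPKM (-0.71). At the other end stood Isg15, at 1.97 and 3.61 FPKM (0.63), and Xaf1, at 3.29 and 5.48 FPKM (0.59). Ifi27l2a, Gbp3 and Ifit3 were thus lower and Ifi27, Isg15 and Xaf1 higher in old skin, all but Ifi27l2a by less than the size counted.

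Of the upstream genes in these controls 1 was counted. Ifnk was 1.05 FPKM at 50 days and 3.18 at 700 days (1.03), the 1 interferon counted in any comparison. Ifnar1 was 19.7 and 14.7 FPKM, and the row of Ifnar2 14.0 and 14.7 FPKM. Of the 56 other interferon-inducible rows none was counted, with a median of -0.04. Of the macrophage and monocyte markers 5 of 10 were lower at 700 days (58.0 against 127 summed FPKM), and all 5 skeletal muscle markers (26.9 against 1347 FPKM) and 5 of 6 adipocyte markers (119.7 against 327 FPKM) were lower. Of the 7 keratinocyte markers, Krt14 (1.20) and Krt1 (1.49) were higher at 700 days (7991 against 5365 FPKM for the list), and all 7 ratios were above 0. The part of any of these cells in Ifnk or in the single members that differed was not tested.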

How the data were processed

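Per the labels' protocols, ribosomal RNA was removed from whole-skin RNA by either of 2 kits, not assigned to samples, before directional library preparation. The authors deposited FPKM, 1 column per group. Per the submitters' processing notes HISAT2, Cufflinks and Cuffdiff were used with mm10; versions, annotation and the way samples were combined are not given in the sources used here. Read depth is unknown.

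From these values log2 ratios of (FPKM + 1) were computed for 6 comparisons, without a test. Rows with a named gene and a mean of at least 1 FPKM entered; where a symbol had several rows, the one with the highest mean was used. All 40 members are named, other genes by list. Members and lists were chosen with earlier results of these data known. Counting was tested on simulated data with large planted changes, whose recovery was scored in abundant genes only. That does not cover low genes or ratios near the size counted. Coordinates are those of GENCODE M21 (GRCm38). As alternatives, the pseudocount was set to 0.1 or 0.5, the filter removed or raised to 5 FPKM, values rescaled to equal totals or a common median, rows summed, or rows limited to 1 symbol. The planned limma fit needed values per sample and was not made. Python 3.11.15, pandas 2.3.3, numpy 2.4.6 and matplotlib 3.10.9 were used. Some genes of the lists are not reported here.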

Additional observations from a re-analysis of the deposited data

How the results depend on the processing

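No paired analysis was possible because the table holds 1 value per group. Under the 8 alternatives no counted member changed sign in any of the 6 comparisons. That outcome was largely fixed by the settings. Changing the filter or the rows left the ratios of the members kept unchanged. A pseudocount cannot reverse a ratio between groups, and the rescaling was too small to reverse a counted one. With a pseudocount of 0.1 the members lower at 700 days numbered 3 (2 with 0.5, and 2 with equal totals, against 1), and those lower in cKO skin at 100 days 11 (8 with equal totals, against 5). The medians with a pseudocount of 0.1 were -0.64 and -0.72 between genotypes at 300 and 100 days and 0.89 between ages in the controls. A mean of at least 5 FPKM, which the 300-day values enter, kept 24 members and 9275 of all genes. Of these members 5 were higher at 300 days in the controls (median 0.49) and 6 in cKO skin (0.62). Their genotype median at 300 days was -0.67. Rescaled to a common median, 1 member was lower in cKO skin at 300 days. Rescaled to equal totals, the medians were -0.76 between genotypes at 100 days, 0.59 between ages in the controls and 0.11 for the difference of genotype ratios.

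Counts over all genes moved as well. With a pseudocount of 0.1 they were 149 higher and 798 lower (against 81 and 418) at 700 days, 404 higher (250) between genotypes at 300 days, 494 and 851 (289 and 555) at 100 days, 227 lower (135) between ages in the controls and 516 and 396 (317 and 199) in cKO skin. With at least 5 FPKM they were 313 lower (665) at 300 days and 192 and 363 at 100 days between genotypes, 190 and 78 (455 and 135) between ages in the controls, 204 and 103 in cKO skin, and 315 and 295 (504 and 624) for the difference of genotype ratios. With equal totals they were 129 higher at 700 days, 840 lower between genotypes at 100 days and 254 lower between ages in the controls. Members near or below 1 FPKM, among them Oas3, Oas1a and Mx1, rest on few reads of unknown number.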
